A study of Mus musculus with 9 samples.

Results

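The Toll-like receptor and nucleic acid sensing pathway was described as a list of 34 genes, whose rows were taken by symbol from the deposited count table of 53647 genes. The members are 10 receptors, 4 co-receptors and chaperones, 5 adaptors, 9 kinases, scaffolds and transcription factors, and 6 genes that restrain signalling. Sequencing of poly(A) RNA gave their levels in Hepa 1-6, a mouse hepatoma line, in 9 samples that form 3 groups of 3. Usp5 KO cells carried a guide against Usp5, a deubiquitinase, delivered in a lentiviral CRISPR vector. Ythdf1 KO cells carried a guide against Ythdf1, which encodes a reader of N6-methyladenosine in mRNA, delivered on CRISPR/Cas9/EGFP plasmids. Control cells carried a control guide (sgControl). All groups were grown in serum-containing medium, and the labels name no stimulus of these receptors in any of them. Knockout lines were grown from single cells by serial dilution and several clones were checked by immunoblot. The clone behind each sample and the way the control line was made are not stated, so clone and delivery cannot be told apart from genotype. The labels do not say that the 3 samples of a group were separate cultures, so the p-values rest on a spread between samples that may be technical. The study asked which immune response genes change alike when either protein is lost.

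Toll-like receptors recognise molecules made by microbes or released by damaged cells: those on the cell surface bind lipids and proteins, and those in endosomes bind nucleic acids. They recruit the adaptors MYD88, TIRAP, TICAM1 (TRIF) and TICAM2 (TRAM), which assemble IRAK kinases or the kinase TBK1 and lead to NF-kB and interferon regulatory factors. RNA in the cytosol is sensed by helicases that signal through MAVS, and bacterial wall fragments by NOD1 and NOD2 through RIPK2. Hepatocytes meet microbial products arriving from the gut in portal blood, and secrete several of the proteins that present them.

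The libraries held between 24760877 and 42989715 counts. Levels of a gene across samples are given as CPM, in which counts are scaled to the TMM-adjusted library size, and levels between genes as TPM, which also divides by the deposited gene length. Control replicate 3 stood apart: a chi-square of its counts against the other controls gave 140 and 121 per degree of freedom, against 14.7 between those 2 and between 3.46 and 60.1 for pairs within the knockouts. It also had the fewest counts and 5.91% mitochondrial counts, against 2.33% and 2.32% in the other controls. By mitochondrial share it lay within the range of the Usp5 KO samples, 3.67% to 6.14%, and above that of the Ythdf1 KO samples, 3.51% to 4.96%. Without it the controls lie apart from every knockout sample in that measure. Counts of calls are given with and without control replicate 3. Usp5 transcript stood at 115 ± 6.58 CPM in Usp5 KO cells and 213 ± 26.5 CPM in control cells (SD, n = 3 each). Ythdf1 transcript stood at 48.2 ± 2.22 CPM in Ythdf1 KO cells and 188 ± 7.06 CPM in control cells (SD, n = 3 each). The 10 hepatocyte markers summed to 5342 to 5628 CPM in Usp5 KO samples and 6472 to 6519 CPM in Ythdf1 KO samples, against 4423 to 4689 CPM in control samples. Of these 10, 2 were called higher in Usp5 KO cells and 8 in Ythdf1 KO cells (against 9.96% and 23.7% of all genes), and 0 lower. Between the knockouts 7 were lower in Usp5 KO cells (against 25.2% of all genes) and 0 higher. On average 3 of the 10 were under 1 CPM. Albumin and alpha-fetoprotein were abundant, while Ttr and Apoa1 reached at most 1.26 and 0.612 CPM in any sample.

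Of the 10 receptors, 3 were expressed (at least 1 CPM in every library of at least 1 group): Tlr4, Tlr2 and Tlr3. The count of expressed receptors was also 3 with a limit of 0.5 CPM or of 1 TPM. Per unit of length Tlr4, the lipopolysaccharide receptor, stood highest of the 10 in each group, with 9.04 ± 2.02 TPM in Usp5 KO cells, 5.54 ± 0.0357 TPM in Ythdf1 KO cells and 11.7 ± 1.03 TPM in control cells (SD, n = 3 each). Tlr2, the receptor for bacterial lipopeptides, followed in Ythdf1 KO and control cells, with 2.04 ± 0.436 TPM in Usp5 KO cells, 5.00 ± 0.355 TPM in Ythdf1 KO cells and 4.85 ± 0.387 TPM in control cells. Tlr3, the endosomal receptor for double-stranded RNA, stood at 2.07 ± 0.626, 1.38 ± 0.0196 and 2.56 ± 0.806 TPM in the Usp5 KO, Ythdf1 KO and control cells, so that in Usp5 KO cells Tlr2 and Tlr3 did not differ beyond their spread. Tlr1, which pairs with TLR2, was tested but low, with 67 counts over the 3 Usp5 KO libraries, 28 over the Ythdf1 KO libraries and 42 over the control libraries. The other 6 receptors had too few counts to be tested: Tlr5 (flagellin), Tlr6 (diacylated lipopeptides, with TLR2), Tlr7 (single-stranded RNA), Tlr9 (unmethylated CpG DNA), Nod1 and Nod2. Each of these had between 0 and 32 counts summed over the 3 libraries of any group. A floor of 3 counts in a library corresponded to between 0.0698 and 0.121 CPM of its plain total, so a level below that rests on fewer than 3 counts.

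All expressed adaptors, kinases and factors had a higher mean level per length than Tlr2 and Tlr3 in control cells, and of these only Irf5 had a lower one than Tlr4. In control cells the members with the highest level per length were Samhd1 (105 ± 1.75 TPM), Irak2 (68.2 ± 2.36 TPM), Irf3 (63.96 ± 13.2 TPM), Irak1 (61.8 ± 3.07 TPM), Cnpy3 (61.2 ± 9.34 TPM), Tollip (60.5 ± 5.09 TPM) and Mavs (50.5 ± 3.02 TPM; SD, n = 3). From Irak2 down to Tollip, neighbours in this order did not differ beyond their spread. All 9 kinases, scaffolds and factors were expressed, from Irf5 at 8.21 ± 0.0957 TPM up to Irak2. Of the 5 adaptors 4 were expressed, and Ticam2, which bridges TLR4 to TICAM1, had 0 counts in all 9 libraries. Over a group this allows up to 0.0307 CPM in Usp5 KO cells and 0.0360 CPM in Ythdf1 KO cells (3 counts over the 3 libraries, counting error only). In all, 25 members were expressed, 2 (Tlr1 and Sarm1) were tested but low, 6 were at trace level and 1 had no count.

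**Figure D1:**
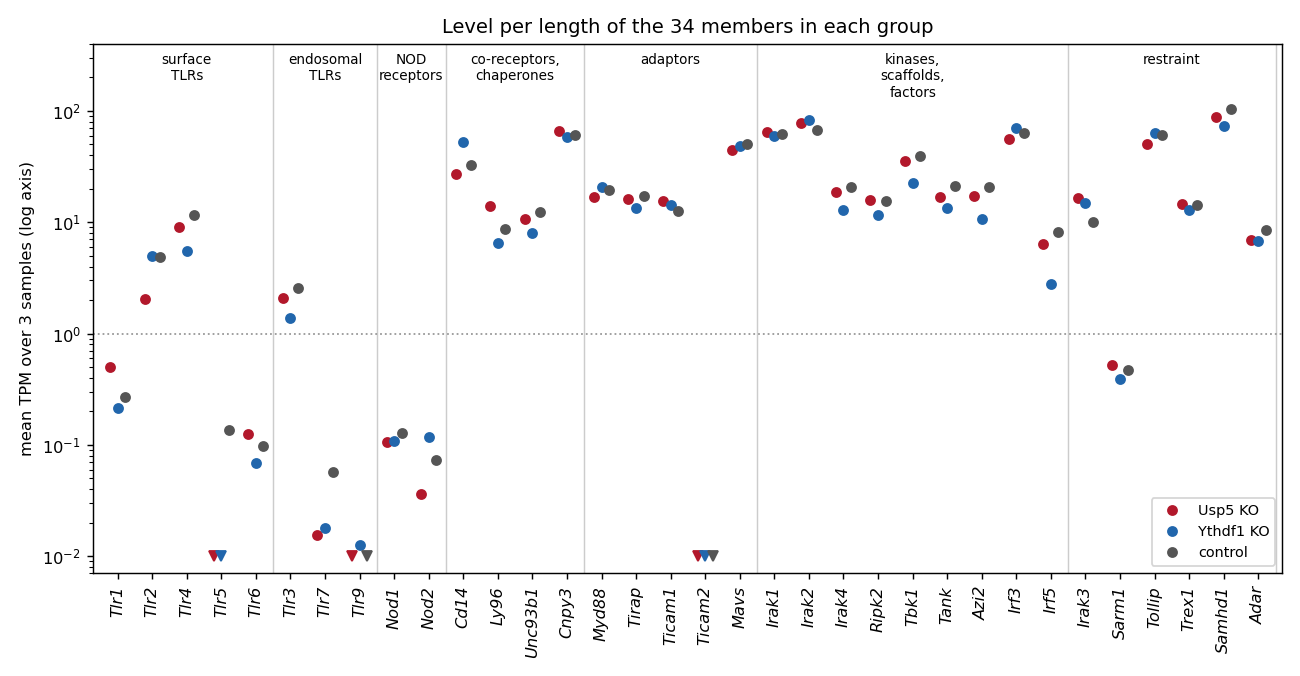
Mean TPM over 3 samples (log axis) of the 34 members in Usp5 KO, Ythdf1 KO and control cells, ordered by role; triangles at the lower edge mark means under 0.01 TPM. Tlr4, Tlr2 and Tlr3 are the receptors above 1 TPM, and Samhd1 stands highest among all members in control cells at 105 TPM.

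Tlr2, Irak2 and Irak3 were the members called in Usp5 KO cells, and 13 members were called in Ythdf1 KO cells. Each knockout was compared with control in an edgeR quasi-likelihood fit over all 9 samples, with Benjamini-Hochberg adjustment over the 13661 genes tested and calls at an adjusted p under 0.05. The 27 members with enough counts entered the test. In Usp5 KO cells 3 of 27 were called (11.1%), against 19.8% of all genes tested: Irak2 and Irak3 were higher (9.96% of all genes) and Tlr2 was lower (9.8% of all genes). That order turned with no filter on low counts, where 6 of 33 members (18.2%) were called in Usp5 KO cells, against 11.9% of all genes. The share of all genes there is 3044 of 25600, against 2700 of 13661 with the filter. It takes in many genes with few counts, so the 2 settings are not like for like. Calls in Ythdf1 KO cells took in 13 of 27 (48.1%), against 46.5% of all genes tested. Cd14, Irak2, Irak3, Irf3, Myd88 and Tollip were higher there (6 of 27, against 23.7% of all genes), and Azi2, Irak4, Irf5, Samhd1, Tbk1, Tlr4 and Unc93b1 were lower (7 of 27, against 22.8%). Scaling by library sizes only gave a median log2 fold change over all genes of -0.12 in Ythdf1 KO cells, against 0.021 with TMM. The split of members was then 3 higher and 10 lower, against 2159 higher and 4185 lower of the 13661 genes tested. Irf3, Myd88 and Tollip were no longer called, and Ripk2, Tank and Tlr3 were called lower. The members tested had a median log2 fold change of -0.063 in Usp5 KO cells, against -0.012 for all genes, and -0.058 in Ythdf1 KO cells, against 0.021 for all genes. A change of at least 2-fold was called for 1 member in each comparison, Tlr2 in Usp5 KO cells (5.64% of all genes) and Irf5 in Ythdf1 KO cells (9.15% of all genes). In this fit Irak2 and Irak3 were called higher in both knockouts, comparisons that share their control samples, and no member was called in opposite directions. The share of all genes called alike in both knockouts was not counted, so this overlap has no background beside it. With limma-voom or a GC and length correction, however, Tlr2 was called higher in Ythdf1 KO cells and lower in Usp5 KO cells.

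Without control replicate 3, 7 members were called in Usp5 KO cells, against 31.2% of all genes, and 15 in Ythdf1 KO cells, against 46.2% of all genes. Irak1, Ly96 and Ticam1 were then also called higher and Adar lower in Usp5 KO cells, beside the same 3 members as with all samples. In Ythdf1 KO cells Irak1, Mavs and Ticam1 were then also called higher, and Unc93b1 was no longer called (log2 fold change -0.34, edgeR adjusted p = 0.0655).

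**Figure D2:**
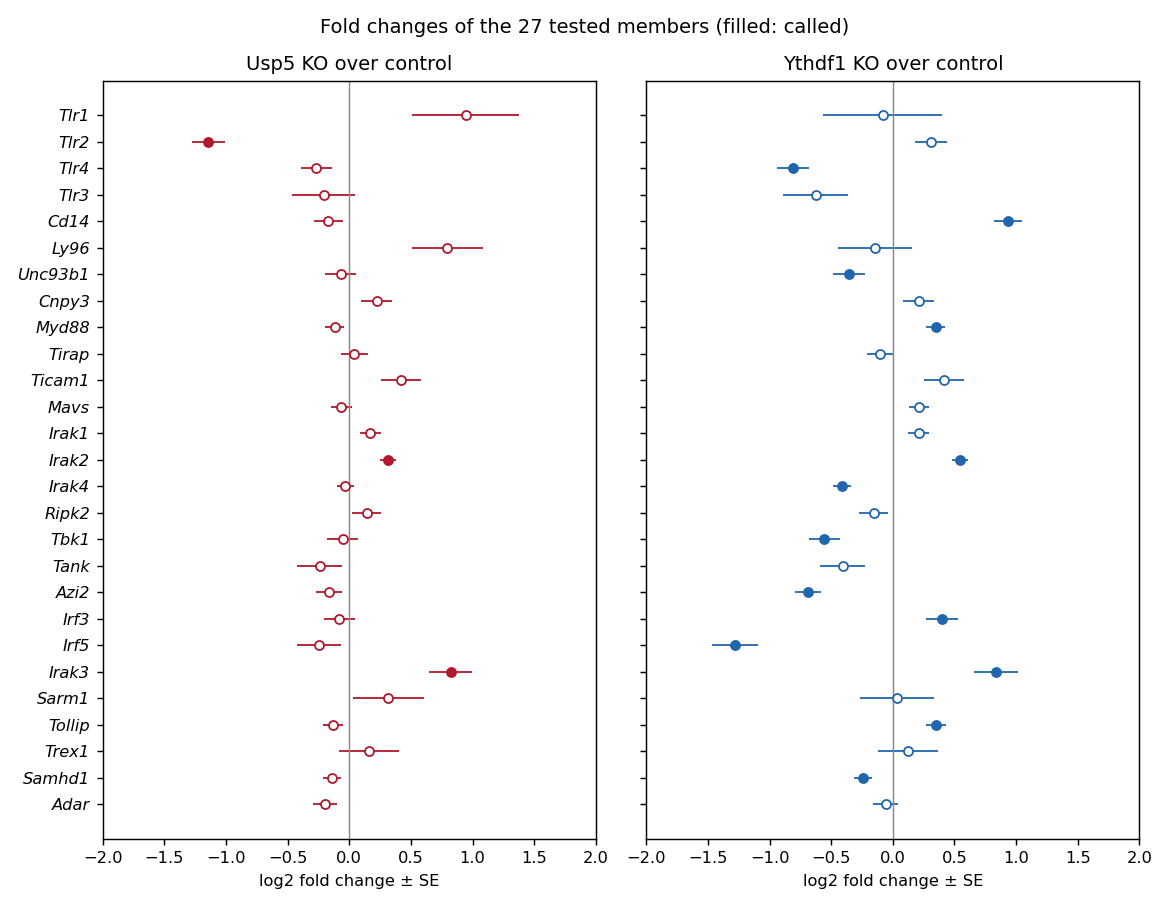
Log2 fold change over control (bars show the SE, n = 3 samples a group) of the 27 tested members in Usp5 KO cells and in Ythdf1 KO cells; filled points were called at an adjusted p under 0.05. Filled points number 3 in Usp5 KO cells and 13 in Ythdf1 KO cells, and only Irak2 and Irak3 are filled in both. The share of all genes called in both was not counted.

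The bases around the start sites of Tlr2 and Irf5, the members with the largest called fall in Usp5 KO and in Ythdf1 KO cells, and of Irak3, the one with the largest called rise in Usp5 KO cells, are shown because NF-kB and interferon regulatory factors act on DNA near the start of their target genes. The windows run from 250 bases before to 50 after the start in the RefSeq table of mouse build GRCm38.p6 (27 of 34 members had an entry there) and are written 5′ to 3′ on the gene's strand. Tlr2 is at chr3:83841559-83841858 on the minus strand, Irf5 at chr6:29526375-29526674 on the plus strand and Irak3 at chr10:120201548-120201847 on the minus strand. Capitals mark matches to the NF-kB consensus, searched on both strands.
Tlr2: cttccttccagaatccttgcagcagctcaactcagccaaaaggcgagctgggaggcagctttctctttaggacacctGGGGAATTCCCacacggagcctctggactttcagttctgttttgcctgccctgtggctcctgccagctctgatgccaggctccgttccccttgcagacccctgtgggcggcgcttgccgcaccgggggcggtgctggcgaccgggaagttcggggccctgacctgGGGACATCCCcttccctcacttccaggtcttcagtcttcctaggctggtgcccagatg
Irf5: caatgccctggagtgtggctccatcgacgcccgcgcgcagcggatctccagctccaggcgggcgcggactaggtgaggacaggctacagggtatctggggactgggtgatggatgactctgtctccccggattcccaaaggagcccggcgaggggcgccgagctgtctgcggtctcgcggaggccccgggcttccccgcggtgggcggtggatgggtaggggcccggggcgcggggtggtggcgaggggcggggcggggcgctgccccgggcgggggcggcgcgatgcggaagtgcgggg
Irak3: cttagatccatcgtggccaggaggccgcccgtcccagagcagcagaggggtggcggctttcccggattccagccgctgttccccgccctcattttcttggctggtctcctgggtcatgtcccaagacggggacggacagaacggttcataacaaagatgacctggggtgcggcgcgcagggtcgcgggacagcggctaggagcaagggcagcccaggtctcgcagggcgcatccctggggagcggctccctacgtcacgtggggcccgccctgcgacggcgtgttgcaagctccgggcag
The Tlr2 window held 3 matches to the NF-kB consensus, which begin 173, 172 and 8 bases before the start, the first pair overlapping. The Irf5 and Irak3 windows held none. This consensus was matched in 4.51% of all 32851 windows in the table and in 4 of the 39 windows of members (Tlr2, Tlr3 and both windows of Tank). The interferon-stimulated response element, searched on both strands as GAAA, NN and GAAA without a gap, was matched in 3.44% of all windows and in 2 member windows, those of Myd88 and Tlr6. The AP-1 motif, TGANTCA, was matched in 7.81% of all windows and in 3 member windows, of Tank and Tlr9. The amino acid response element, by its name CARE, was matched in 3.97% of all windows and in 0 member windows. A match is a description of the letters, not a measured binding site.

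Among the surface receptors, Tlr2 fell in Usp5 KO cells and Tlr4 in Ythdf1 KO cells. Tlr2 stood at 3.38, 2.76 and 3.73 CPM in the Usp5 KO samples and at 9.28, 9.41 and 8.34 CPM in the Ythdf1 KO samples, against 6.73, 7.68 and 7.40 CPM in the control samples. Every Usp5 KO sample lay below every control and every Ythdf1 KO sample above every control. Tlr2 fell in Usp5 KO cells, with a log2 fold change of -1.14 ± 0.14 (SE, n = 3; edgeR adjusted p = 0.000298), to 45.3% of the control level. Its log2 fold change in Ythdf1 KO cells was 0.31 ± 0.13 (SE), which did not pass (edgeR adjusted p = 0.0743). Tlr2 was called higher there with limma-voom and with the GC and length correction. In a culture measured as a whole, fewer cells carrying a transcript and less of it per cell cannot be told apart.

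Tlr4 stood at 15.5, 19.1 and 21.6 CPM in the Usp5 KO samples and at 13.1, 12.5 and 12.8 CPM in the Ythdf1 KO samples, against 19.8, 22.8 and 24.8 CPM in the control samples. The Ythdf1 KO samples were the lowest of the 9 and did not overlap either other group, while Usp5 KO and control samples overlapped. Tlr4 fell in Ythdf1 KO cells, with a log2 fold change of -0.81 ± 0.13 (SE, n = 3; edgeR adjusted p = 0.000697). It did not pass in Usp5 KO cells, where its log2 fold change was -0.27 ± 0.13 (SE; edgeR adjusted p = 0.169).

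Tlr3 did not pass in either knockout. It stood at 3.15, 4.27 and 5.16 CPM in the Usp5 KO samples and at 3.11, 3.10 and 3.13 CPM in the Ythdf1 KO samples, against 3.24, 4.66 and 6.68 CPM in the control samples. The controls covered a range of more than 2-fold, with control replicate 3 highest, and all Ythdf1 KO samples lay below all controls. Its log2 fold change in Ythdf1 KO cells was -0.63 ± 0.26 (SE; edgeR adjusted p = 0.0735) and -0.34 without control replicate 3. For Usp5 KO cells the value was -0.21 ± 0.26 (SE; edgeR adjusted p = 0.61). Under 6 of 18 alternative settings, among them DESeq2 and no filter on low counts, Tlr3 was called lower in Ythdf1 KO cells.

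Among the trace receptors, Tlr5 differed between the groups in counts. It had 1 count over the 3 Usp5 KO libraries and 0 over the Ythdf1 KO libraries, against 27 over the control libraries. The ratio of control to Usp5 KO, scaled to library size, was 24.8 with an exact 95% interval from 4.09 to 1016, and Tlr5 was at least 7.05-fold lower in Ythdf1 KO cells (floor of 3 counts over the group). With no filter on low counts, Tlr5 was called lower in both knockouts (edgeR adjusted p = 0.0140 in Usp5 KO and 0.00231 in Ythdf1 KO cells). At 27 counts its control level was 0.254 CPM. For Tlr6, Tlr7, Nod1 and Nod2 in both knockouts and Tlr9 in Ythdf1 KO cells the interval of the same ratio included 1. Tlr9 had 0 counts in Usp5 KO cells and 1 in control cells.

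The partners of TLR4 did not move together. CD14 hands lipopolysaccharide to the complex of TLR4 and LY96 (MD-2). Cd14 stood at 21.3, 19.7 and 23.99 CPM in the Usp5 KO samples and at 47.1, 42.4 and 50.3 CPM in the Ythdf1 KO samples, against 26.4, 25.6 and 20.9 CPM in the control samples. Every Ythdf1 KO sample was above every other sample. Cd14 rose in Ythdf1 KO cells, with a log2 fold change of 0.94 ± 0.11 (SE, n = 3; edgeR adjusted p = 0.000153), where Tlr4 fell. Its log2 fold change in Usp5 KO cells was -0.17 ± 0.12 (SE; edgeR adjusted p = 0.335). Ly96 stood at 3.80, 6.15 and 4.39 CPM in the Usp5 KO samples and at 2.55, 3.02 and 1.89 CPM in the Ythdf1 KO samples, against 2.16, 2.18 and 4.06 CPM in the control samples. Control replicate 3 lay well above the other controls and inside the Usp5 KO range. The log2 fold change of Ly96 in Usp5 KO cells was 0.79 ± 0.29 with all samples (SE; edgeR adjusted p = 0.0779) and 1.13 without control replicate 3 (edgeR adjusted p = 0.0074). With all samples Ly96 was also called higher there by DESeq2, by limma-voom and with no filter on low counts.

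UNC93B1 carries the nucleic acid sensing receptors to endosomes, and CNPY3 is a chaperone that folds Toll-like receptors. Unc93b1 stood at 12.4, 10.5 and 9.90 CPM in the Usp5 KO samples and at 9.43, 8.04 and 9.48 CPM in the Ythdf1 KO samples, against 12.5, 10.3 and 11.7 CPM in the control samples. All Ythdf1 KO samples lay below all controls, the highest of them close to the lowest control. Unc93b1 was called lower in Ythdf1 KO cells, with a log2 fold change of -0.36 ± 0.13 (SE, n = 3; edgeR adjusted p = 0.0417). That call was lost without control replicate 1 or 3 (edgeR adjusted p = 0.134 and 0.0655) and without Ythdf1 KO replicate 1, 2 or 3 (0.0532, 0.0908 and 0.0514), with log2 fold changes from -0.43 to -0.29. Cnpy3 averaged 64.3 ± 7.47 CPM in Usp5 KO cells, 63.8 ± 8.45 CPM in Ythdf1 KO cells and 55.1 ± 6.24 CPM in control cells (SD, n = 3 each) and passed in neither comparison.

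**Figure D3:**
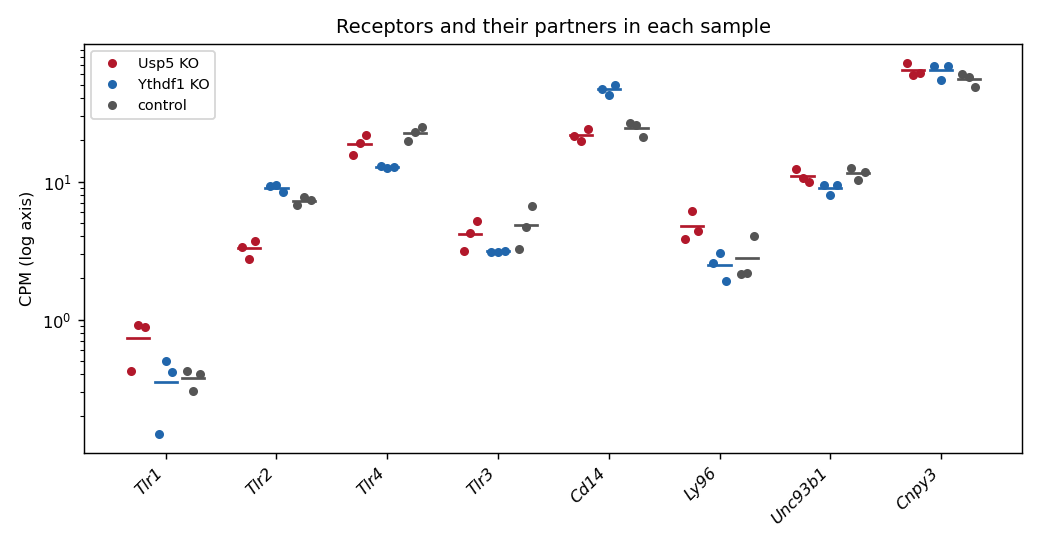
CPM (log axis) of the expressed or low receptors and their partners in each of the 9 samples, by group; each point is 1 sample and each bar a group mean. Tlr2 in the Usp5 KO samples (2.76 to 3.73 CPM) and Tlr4 in the Ythdf1 KO samples (12.5 to 13.1 CPM) lie below all controls, and Cd14 in the Ythdf1 KO samples (42.4 to 50.3 CPM) above all controls.

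Markers of other cells were low or absent in these cultures, with some exceptions. Of 12 leukocyte markers, 9 were under 1 CPM on average, Cd3e and Ncr1 had 0 counts, and Ptprc, carried by leukocytes in general, had 7 counts over the Usp5 KO libraries, 13 over the Ythdf1 KO libraries and 14 over the control libraries. Their summed level was 10.3 to 11.8 CPM in Usp5 KO samples and 15.5 to 17.2 CPM in Ythdf1 KO samples, against 13.0 to 15.5 CPM in control samples. Cd68 and Csf1r, markers of macrophages, carried most of it. They were among the 3 leukocyte markers expressed by the same limit as the receptors. Cd68 stood at 4.18, 4.79 and 3.04 CPM in the Usp5 KO samples and 7.40, 8.53 and 7.89 CPM in the Ythdf1 KO samples, against 4.53, 4.97 and 7.84 CPM in the control samples. Csf1r averaged 5.36 ± 0.915, 6.26 ± 1.47 and 6.34 ± 0.631 CPM in Usp5 KO, Ythdf1 KO and control cells (SD, n = 3 each). None of the 4 leukocyte markers tested was called in either knockout against control, and Cd68 was lower in Usp5 KO than in Ythdf1 KO cells, at -0.98 ± 0.22 (log2, SE; edgeR adjusted p = 0.00499). Endothelial markers summed to at most 1.45 CPM in any sample, and stellate cell markers to at most 2.07 CPM. Of the 2 stellate cell markers tested, Des was lower in Ythdf1 KO cells than in control cells, at -1.46 ± 0.27, and higher in Usp5 KO than in Ythdf1 KO cells, at 0.96 ± 0.28 (log2, SE; edgeR adjusted p = 0.00149 and 0.0161), from levels of 0.832 ± 0.152, 0.427 ± 0.0802 and 1.18 ± 0.102 CPM in Usp5 KO, Ythdf1 KO and control cells. The part of these markers in the results on members was not tested.

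Of the adaptors, Myd88 alone was called. MYD88 serves nearly all Toll-like receptors. Myd88 stood at 16.9, 18.4 and 17.9 CPM in the Usp5 KO samples and at 24.01, 24.5 and 24.8 CPM in the Ythdf1 KO samples, against 20.2, 18.3 and 19.1 CPM in the control samples. The Ythdf1 KO samples were above every other sample, and the spread within each group was small. Myd88 was higher in Ythdf1 KO cells, with a log2 fold change of 0.35 ± 0.079 (SE, n = 3; edgeR adjusted p = 0.0049), which did not pass with no filter on low counts (0.30; edgeR adjusted p = 0.0587). Its value in Usp5 KO cells was -0.12 ± 0.079 (SE; edgeR adjusted p = 0.322). Tirap, which brings MYD88 to TLR2 and TLR4, had log2 fold changes of 0.041 ± 0.11 in Usp5 KO and -0.10 ± 0.11 in Ythdf1 KO cells (SE). Mavs, the mitochondrial adaptor of the cytosolic RNA sensors, had -0.063 ± 0.084 and 0.21 ± 0.084 (log2, SE) in the same order. Ticam1, the adaptor of TLR3, had 0.42 ± 0.16 in Usp5 KO and 0.42 ± 0.16 in Ythdf1 KO cells (log2, SE), neither of which passed (edgeR adjusted p = 0.092 and 0.0589). Without control replicate 3 both Ticam1 values passed, at 0.60 and 0.59 on the log2 scale (edgeR adjusted p = 0.00998 and 0.00677). With all samples Ticam1 was also called higher in both knockouts with no filter on low counts, and in Ythdf1 KO cells by limma-voom.

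In the IRAK family Irak4 was called lower and Irak2 and Irak3 higher in Ythdf1 KO cells, and Irak1 did not pass. IRAK4 is recruited to MYD88 first and activates IRAK1, IRAK2 sustains the signal, and IRAK3 (IRAK-M) holds it back. Irak4 stood at 26.1, 25.4 and 27.1 CPM in the Usp5 KO samples and at 20.1, 20.3 and 19.9 CPM in the Ythdf1 KO samples, against 27.4, 26.4 and 26.6 CPM in the control samples. The Ythdf1 KO samples were clearly apart from the other 6, which overlapped. Irak4 fell in Ythdf1 KO cells, with a log2 fold change of -0.41 ± 0.072 (SE, n = 3; edgeR adjusted p = 0.00112), and had -0.033 ± 0.071 in Usp5 KO cells (SE; edgeR adjusted p = 0.784).

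Irak2 rose in both knockouts. It stood at 50.04, 49.2 and 49.7 CPM in the Usp5 KO samples and at 59.7, 57.2 and 57.5 CPM in the Ythdf1 KO samples, against 40.1, 39.4 and 40.4 CPM in the control samples. The 3 groups were fully separated, with Ythdf1 KO highest and control lowest. Irak2 had a log2 fold change of 0.31 ± 0.065 in Usp5 KO cells (SE, n = 3; edgeR adjusted p = 0.00779) and 0.54 ± 0.066 in Ythdf1 KO cells (SE; edgeR adjusted p = 0.000143). Irak1, by contrast, had 0.17 ± 0.086 in Usp5 KO and 0.21 ± 0.086 in Ythdf1 KO cells (log2, SE), which did not pass (edgeR adjusted p = 0.19 and 0.0705). Without control replicate 3 both passed, at 0.25 and 0.29 on the log2 scale (edgeR adjusted p = 0.0347 and 0.0128).

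Irak3 rose in both knockouts by about the same amount. It stood at 20.7, 27.2 and 24.4 CPM in the Usp5 KO samples and at 23.3, 26.1 and 23.4 CPM in the Ythdf1 KO samples, against 11.8, 11.1 and 18.2 CPM in the control samples. Control replicate 3 was the highest control and still below all knockout samples. Irak3 had a log2 fold change of 0.82 ± 0.18 in Usp5 KO cells (SE, n = 3; edgeR adjusted p = 0.00934) and 0.84 ± 0.18 in Ythdf1 KO cells (SE; edgeR adjusted p = 0.00343). Without control replicate 3 these were 1.07 and 1.08.

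The kinase that activates IRF3 and one of its scaffolds fell in Ythdf1 KO cells. TBK1 phosphorylates IRF3 and is brought to its adaptors by the scaffolds TANK and AZI2 (NAP1). Tbk1 stood at 43.03, 49.4 and 49.8 CPM in the Usp5 KO samples and at 30.7, 36.5 and 33.00 CPM in the Ythdf1 KO samples, against 42.8, 45.97 and 58.8 CPM in the control samples. All Ythdf1 KO samples lay below all others, and control replicate 3 was the highest of the 9. Tbk1 had a log2 fold change of -0.56 ± 0.13 in Ythdf1 KO cells (SE, n = 3; edgeR adjusted p = 0.00482). Azi2 stood at 23.1, 22.2 and 27.6 CPM in the Usp5 KO samples and at 16.6, 18.8 and 15.3 CPM in the Ythdf1 KO samples, against 27.4, 26.99 and 27.2 CPM in the control samples. The controls were nearly equal and all Ythdf1 KO samples lay below them and below the Usp5 KO samples. Azi2 had -0.69 ± 0.11 in Ythdf1 KO cells (SE, n = 3; edgeR adjusted p = 0.000597). Neither passed in Usp5 KO cells, with -0.052 ± 0.12 for Tbk1 and -0.16 ± 0.11 for Azi2 (log2, SE). Tank averaged 20.6 ± 2.63 CPM in Usp5 KO cells, 18.3 ± 2.77 CPM in Ythdf1 KO cells and 24.3 ± 6.38 CPM in control cells (SD, n = 3 each), and Ripk2, the kinase of the NOD receptors, 23.1 ± 3.04, 18.8 ± 0.860 and 20.97 ± 2.38 CPM in the same order. Neither passed in either knockout.

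Of the 2 interferon regulatory factors, Irf3 was higher and Irf5 lower in Ythdf1 KO cells. Irf3 encodes the factor that TBK1 phosphorylates to switch on interferon genes. It stood at 40.98, 36.2 and 36.00 CPM in the Usp5 KO samples and at 54.00, 47.6 and 56.5 CPM in the Ythdf1 KO samples, against 45.6, 41.7 and 32.4 CPM in the control samples. All Ythdf1 KO samples were above all controls, the lowest of them close to control replicate 1. Irf3 had a log2 fold change of 0.40 ± 0.13 in Ythdf1 KO cells (SE, n = 3; edgeR adjusted p = 0.0249). This call was lost without Usp5 KO replicate 2, which enters only the shared spread and the scaling, and without Ythdf1 KO replicate 1 or 3 (0.36, 0.35 and 0.32 on the log2 scale; edgeR adjusted p = 0.0519, 0.102 and 0.124). It was also lost in a fit of only the 6 Ythdf1 KO and control samples (0.36; edgeR adjusted p = 0.0595). Irf5 encodes a factor that acts after MYD88 in inflammatory cytokine induction. It stood at 6.62, 5.84 and 6.70 CPM in the Usp5 KO samples and at 2.18, 3.21 and 3.96 CPM in the Ythdf1 KO samples, against 7.51, 7.38 and 7.89 CPM in the control samples. Every Ythdf1 KO sample was well below the other 6, although these 3 differed among themselves. The log2 fold change of Irf5 in Ythdf1 KO cells was -1.28 ± 0.19 (SE, n = 3; edgeR adjusted p = 0.000391), or 41.1% of the control level, the largest called fall among the members there. Neither factor passed in Usp5 KO cells, with -0.25 ± 0.18 for Irf5 and -0.082 ± 0.13 for Irf3 (log2, SE; edgeR adjusted p = 0.359 and 0.689).

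Among the genes that restrain the pathway, Tollip was higher and Samhd1 slightly lower in Ythdf1 KO cells, beside the rise of Irak3. TOLLIP binds IRAK proteins and limits their activation. Tollip stood at 109.9, 91.8 and 108 CPM in the Usp5 KO samples and at 147, 139.6 and 145 CPM in the Ythdf1 KO samples, against 117, 114 and 108 CPM in the control samples. The Ythdf1 KO samples were above all others, with a log2 fold change of 0.35 ± 0.083 (SE, n = 3; edgeR adjusted p = 0.00644). SAMHD1 breaks down deoxynucleotides and limits the nucleic acids that sensors see. Samhd1 stood at 132, 148 and 138 CPM in the Usp5 KO samples and at 128, 131 and 130.2 CPM in the Ythdf1 KO samples, against 147, 149 and 163 CPM in the control samples. All Ythdf1 KO samples were below all controls, by a log2 fold change of -0.24 ± 0.074 (SE, n = 3; edgeR adjusted p = 0.0217), which did not pass without Ythdf1 KO replicate 1 (-0.26; edgeR adjusted p = 0.0512). Neither passed in Usp5 KO cells, with -0.13 ± 0.083 for Tollip and -0.14 ± 0.074 for Samhd1 (log2, SE). Trex1, a DNA exonuclease, Adar, which edits double-stranded RNA, and Sarm1, a TIR-domain NADase, passed in neither knockout: their log2 fold changes were 0.16, -0.20 and 0.32 in Usp5 KO cells and 0.12, -0.058 and 0.035 in Ythdf1 KO cells.

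Across all genes, fold changes in Ythdf1 KO cells moved with the GC content of the transcript. In the fifth of tested genes with the lowest GC content (28.3% to 43.8%) the median log2 fold change was -0.34, and 40.7% of genes were called lower and 7.95% higher. In the fifth with the highest GC content (55.4% to 78.3%) the median was 0.30, and 6.52% were called lower and 39.6% higher. The same medians in Usp5 KO cells were -0.088 and 0.052. The 7 members called lower in Ythdf1 KO cells had a median GC content of 49.0%, the 6 called higher one of 52.8%, and the 14 not called one of 51.1%. Their ranges overlapped, from 39.4% to 57.3%, from 49.7% to 56.7% and from 38.4% to 57.8% in the same order. Tlr4 had 39.4%, Azi2 42.9% and Tbk1 45.4%, while Irf5 had 55.7% and Unc93b1 57.3%. Once smooth trends on GC content and gene length had been removed from each library, 11 members were called in Ythdf1 KO cells, against 42.5% of all genes. Of these, 10 were among the 13 called without the correction.

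The correction changed single members by different amounts. Irf3, Myd88 and Samhd1 were no longer called in Ythdf1 KO cells, at 0.051, 0.14 and -0.17 on the log2 scale (edgeR adjusted p = 0.604, 0.191 and 0.0556). Tlr2 was then called higher there, at 0.39 (edgeR adjusted p = 0.0226). The falls of Tlr4, Azi2 and Tbk1 were still called but smaller, at -0.35, -0.40 and -0.36, as was the rise of Irak2 at 0.28. The fall of Unc93b1 was larger, at -0.67 (edgeR adjusted p = 0.000472), as was that of Irf5, at -1.57 (edgeR adjusted p = 0.000169). Irak3 and Cd14 stood at 0.88 and 0.73. The same 3 members were called in Usp5 KO cells after the correction, Tlr2 at -1.14, Irak2 at 0.33 and Irak3 at 0.82. The part of GC content in the uncorrected values was not tested.

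**Figure D4:**
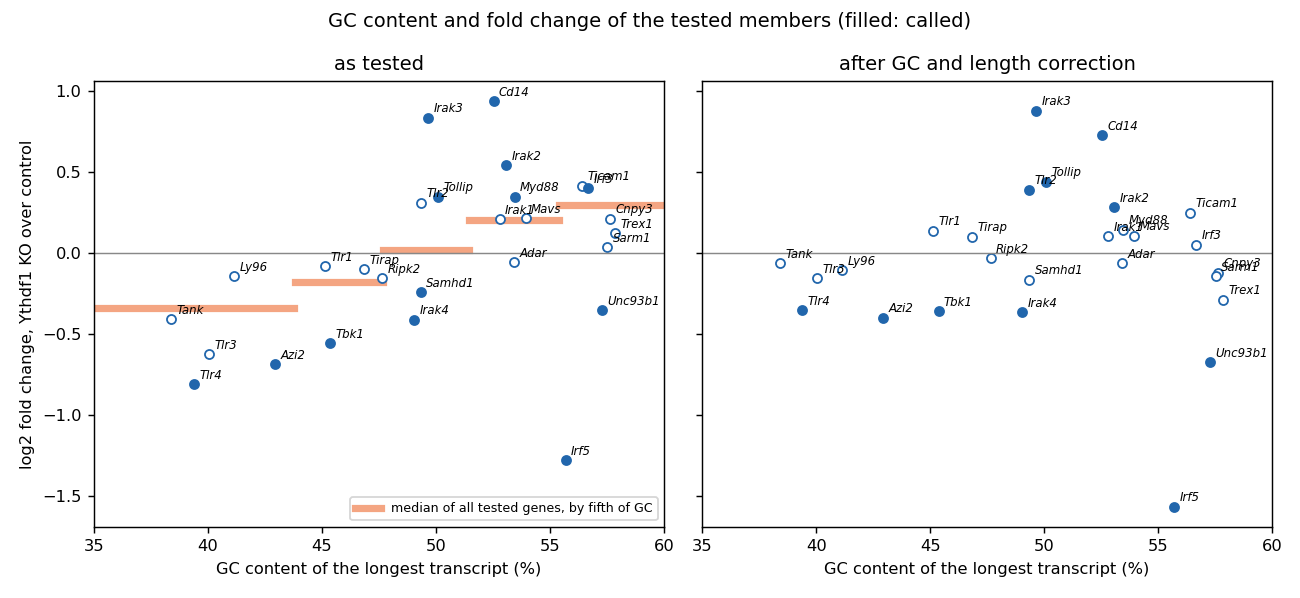
Log2 fold change over control of the tested members against the GC content of their longest transcript in percent, in Ythdf1 KO cells, without (left) and with (right) the GC and length correction; filled points were called and thick bars on the left are medians of all tested genes, grouped by GC content. In Ythdf1 KO cells Tlr4, at 39.4% GC, lies at -0.81 without the correction and at -0.35 with it, and Irf5, at 55.7% GC, at -1.28 and -1.57.

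Both knockouts were then compared with each other, a difference that does not contain the control samples. Of the 27 members tested 13 were called (48.1%), against 48.5% of all genes. Azi2, Irak4, Irf5, Ly96, Tbk1 and Tlr4 were higher in Usp5 KO cells than in Ythdf1 KO cells (6 of 27, against 23.3% of all genes), and Cd14, Irak2, Irf3, Mavs, Myd88, Tlr2 and Tollip were lower (7 of 27, against 25.2%). The median log2 fold change of the members was 0.10, against 0.00028 for all genes. A difference of at least 2-fold was called for 3 members, against 12.1% of all genes: Tlr2 at -1.45 ± 0.14, Cd14 at -1.11 ± 0.12 and Irf5 at 1.03 ± 0.19 (log2, Usp5 KO over Ythdf1 KO, SE; edgeR adjusted p = 2.48e-05, 4.62e-05 and 0.00134). Ly96 differed by 0.94 ± 0.29 (log2, SE; edgeR adjusted p = 0.0234), with all Usp5 KO samples above all Ythdf1 KO samples. Tlr4 and its partner Ly96 were thus both higher in Usp5 KO cells, while Cd14 was higher in Ythdf1 KO cells. Mavs differed by -0.28 ± 0.084 (log2, SE; edgeR adjusted p = 0.0203), with 66.99, 71.3 and 72.2 CPM in the Usp5 KO samples and 85.5, 82.2 and 87.1 CPM in the Ythdf1 KO samples. Irak3 differed by -0.013 ± 0.17 (log2, SE; edgeR adjusted p = 0.955), and its samples overlapped between the knockouts. Without control replicate 3, which here enters only the shared spread and the scaling, 14 members were called, against 54.7% of all genes. Leaving out Usp5 KO replicate 2 or Ythdf1 KO replicate 3 left 9 calls each (32.1%, against 38.7% and 35.7% of all genes): Irak2, Irf3, Ly96 and Mavs did not pass without either of them (edgeR adjusted p from 0.0532 to 0.0991). Without Ythdf1 KO replicate 1, Irak2, Ly96 and Mavs did not pass (0.104, 0.0557 and 0.0864), and without Usp5 KO replicate 1, Irak2 and Mavs did not (0.0579 and 0.0907). With no filter on low counts Irak2 and Mavs were also lost (0.198 and 0.0825). With the GC and length correction 11 were called (40.7%, against 48.6% of all genes), 7 higher and 4 lower in Usp5 KO cells, of which 9 were among the 13: Irak2, Irf3, Mavs and Tlr4 dropped out, and Cnpy3 and Unc93b1 came in. With library sizes alone the split was 8 higher and 6 lower, against 3673 higher and 2874 lower of all genes, and Irak2 was not called (edgeR adjusted p = 0.0796).

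Sensors outside the list were counted in the same way. The table held 17 other sensors, and 10 of these were tested, of which 1 was lower in Usp5 KO cells (against 9.8% of all genes), and 1 was higher and 4 were lower in Ythdf1 KO cells (against 23.7% and 22.8% of all genes). Ifih1 (MDA5), a cytosolic receptor for long double-stranded RNA that signals through MAVS, was lower in both, at -0.55 ± 0.15 in Usp5 KO and -0.72 ± 0.15 in Ythdf1 KO cells (log2, SE; edgeR adjusted p = 0.0252 and 0.00295). The Usp5 KO call was lost in a fit of only the 6 samples compared (edgeR adjusted p = 0.0623), without control replicate 2 (0.0977) and without Usp5 KO replicate 1 or 2 (0.0687 and 0.0987). The Ythdf1 KO call was lost with the GC and length correction, at -0.31 (edgeR adjusted p = 0.0679). Eif2ak2 (PKR), a kinase activated by double-stranded RNA, and Nlrc3 were lower in Ythdf1 KO cells, at -0.80 ± 0.12 and -1.19 ± 0.24 (log2, SE; edgeR adjusted p = 0.000482 and 0.00244). Nlrx1, a mitochondrial protein of the NOD-like family, was higher there at 0.56 ± 0.16 (SE; edgeR adjusted p = 0.0132), which did not pass with library sizes alone (0.0653), without Ythdf1 KO replicate 1 (0.0609) or without Ythdf1 KO replicate 3 (0.0648). Ddx58 (RIG-I) was expressed and passed in neither knockout. In the branch that senses DNA, Sting1 stood at 107 ± 10.1 TPM in Usp5 KO cells, 96.3 ± 1.99 TPM in Ythdf1 KO cells and 104 ± 7.31 TPM in control cells (SD, n = 3 each). The enzyme that makes its ligand, Cgas, had only 9 counts over the Usp5 KO libraries, 7 over the Ythdf1 KO libraries and 7 over the control libraries. Tlr8, Tlr11 and Tlr13 had 0 counts in all 9 libraries and Tlr12 had 1 in all.

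All 21 other signalling proteins of the pathway were expressed and tested. Calls were 2 higher and 3 lower in Usp5 KO cells (against 9.96% and 9.8% of all genes), and 2 higher and 5 lower in Ythdf1 KO cells (against 23.7% and 22.8%). Pik3ap1 (BCAP), an adaptor that links Toll-like receptors to phosphoinositide 3-kinase, stood at 4.58, 4.27 and 5.70 CPM in the Usp5 KO samples and at 28.6, 28.2 and 31.2 CPM in the Ythdf1 KO samples, against 45.2, 44.4 and 44.9 CPM in the control samples. The 3 groups were separated, with log2 fold changes of -3.21 ± 0.11 in Usp5 KO and -0.61 ± 0.099 in Ythdf1 KO cells (SE; edgeR adjusted p = 1e-07 and 0.000728). Traf3, the ubiquitin ligase that joins TICAM1 and MAVS to TBK1, fell in both, at -1.02 ± 0.096 and -0.93 ± 0.096 (log2, SE; edgeR adjusted p = 5.66e-05 in Usp5 KO and 5.58e-05 in Ythdf1 KO cells). Ikbke, the kinase most like TBK1, fell in both, at -1.57 ± 0.079 in Usp5 KO and -0.31 ± 0.077 in Ythdf1 KO cells (log2, SE; edgeR adjusted p = 1.29e-06 and 0.00811). Lbp, the plasma protein that passes lipopolysaccharide to CD14, rose in both, at 0.80 ± 0.084 in Usp5 KO and 1.38 ± 0.084 in Ythdf1 KO cells (log2, SE; edgeR adjusted p = 0.000127 and 2.79e-06). Tbkbp1, which encodes a TBK1-binding protein, was called higher in both, at 0.30 ± 0.085 and 0.48 ± 0.085 (log2, SE, edgeR adjusted p = 0.0312 and 0.00132). Its Usp5 KO call was lost under 8 of 18 alternatives. The Ythdf1 KO call was lost with the GC and length correction, at 0.18 (edgeR adjusted p = 0.0650). Map3k7 (TAK1), the kinase between IRAK signalling and NF-kB, fell in Ythdf1 KO cells at -0.60 ± 0.097 (log2, SE; edgeR adjusted p = 0.000749), or -0.27 with the GC and length correction.

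Genes that the pathway switches on were called in both knockouts, mostly lower in Usp5 KO cells. Of 11 tested output genes, 0 were higher and 8 lower in Usp5 KO cells (against 9.96% and 9.8% of all genes), and 4 were higher and 3 lower in Ythdf1 KO cells (against 23.7% and 22.8%), with median log2 fold changes of -1.04 and 0.71. The median in Usp5 KO cells was the same with Ccl2 and Ccl7, which had 2 and 0 counts there, set at their bound. The list was chosen with results of these data known, so its direction is a description. Cxcl2, a neutrophil chemokine, stood at 0.164, 0.175 and 0.347 CPM in the Usp5 KO samples and at 7.88, 7.85 and 8.61 CPM in the Ythdf1 KO samples, against 1.29, 1.60 and 1.49 CPM in the control samples. It fell in Usp5 KO cells at -2.71 ± 0.26 and rose in Ythdf1 KO cells at 2.47 ± 0.19 (log2, SE; edgeR adjusted p = 6.94e-05 and 1.1e-05). Cxcl10, which TLR3 and the RNA helicases induce, stood at 1.78, 2.24 and 2.35 CPM in the Usp5 KO samples and at 22.6, 27.8 and 24.6 CPM in the Ythdf1 KO samples, against 9.31, 8.10 and 14.04 CPM in the control samples. Cxcl10 fell in Usp5 KO cells at -2.30 ± 0.22 and rose in Ythdf1 KO cells at 1.27 ± 0.19 (log2, SE; edgeR adjusted p = 5.71e-05 and 0.000465). The groups did not overlap for either chemokine. Cxcl1 fell in Usp5 KO cells at -2.67 ± 0.16 (log2, SE, edgeR adjusted p = 3.72e-06). Other output genes were lower in Ythdf1 KO cells. Ccl2, a monocyte chemokine, had 2 counts over the Usp5 KO libraries and 643 over the Ythdf1 KO libraries, against 4127 over the control libraries, and was called lower in both knockouts (edgeR adjusted p = 1.5e-09 in Usp5 KO and 6.54e-07 in Ythdf1 KO cells). Nfkbiz, which encodes a nuclear regulator of NF-kB targets, fell in Ythdf1 KO cells at -1.29 ± 0.14 and did not pass in Usp5 KO cells, at -0.20 ± 0.14 (log2, SE; edgeR adjusted p = 8.81e-05 and 0.335). Interferon beta (Ifnb1) had 0 counts in all 9 libraries, and Tnf, Il6 and Il1b had at most 5 over any group.

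Inhibitors outside the list that passed in Usp5 KO cells were lower there. Of 17 tested, 0 were higher and 6 lower in Usp5 KO cells (against 9.96% and 9.8% of all genes), and 5 were higher and 5 lower in Ythdf1 KO cells (against 23.7% and 22.8%). Nfkbie and Nfkbia, inhibitors of NF-kB that are themselves NF-kB targets, fell in Usp5 KO cells at -2.09 ± 0.11 and -1.30 ± 0.11, and Tnfaip3 (A20) at -1.12 ± 0.085 (log2, SE; edgeR adjusted p = 1.78e-06, 3.29e-05 and 1.47e-05). Nfkbie and Nfkbia were also called lower in Ythdf1 KO cells, at -0.32 ± 0.11 and -0.42 ± 0.11 (log2, SE; edgeR adjusted p = 0.0292 and 0.0104). Among inhibitors in Ythdf1 KO cells, Trafd1 and Nfkbib rose at 0.79 ± 0.097 and 0.76 ± 0.10, and Ttc37 and Tax1bp1 fell at -0.61 ± 0.11 and -0.53 ± 0.12 (log2, SE; edgeR adjusted p = 0.000157, 0.000237, 0.00145 and 0.00454). With the GC and length correction Ttc37 and Tax1bp1 were no longer called (edgeR adjusted p = 0.174 and 0.242).

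**Figure D5:**
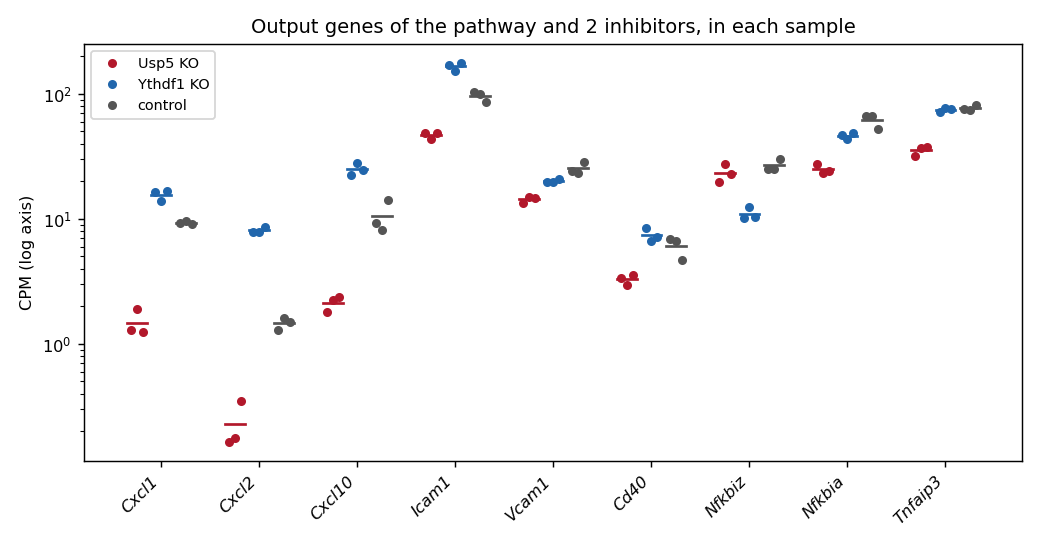
CPM (log axis) of output genes of the pathway and of the inhibitors Nfkbia and Tnfaip3 in each of the 9 samples, by group; each point is 1 sample and each bar a group mean. Cxcl2 lies at 0.164 to 0.347 CPM in the Usp5 KO samples and at 7.85 to 8.61 CPM in the Ythdf1 KO samples, on either side of the controls at 1.29 to 1.60 CPM.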

How the data were processed

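Counts per gene were estimated counts written as whole numbers by the authors in the deposited table, which also gives gene lengths; fastp 0.23.2, STAR 2.7.10a, Salmon 1.9.0 and GRCm39 are named, without roles, in the submitters' processing notes. Overlapping genes can share counts, as annotation release and strand use are not given in the sources used here. Counts were tested without further rounding in edgeR 4.0.16 (R 4.3.3): TMM scaling, filterByExpr, glmQLFit and glmQLFTest with group as the only term over 9 samples, and Benjamini-Hochberg adjustment over 13661 genes. SE was computed from the log2 fold change and its F statistic. CPM used TMM-scaled library sizes, and TPM the deposited lengths. GC content came from GENCODE vM21 by gene identifier (99.86% matched). Low counts have exact 95% intervals covering counting error only. Members and lists were chosen with earlier results of these data known. Values are given for each expressed receptor and each member called in a knockout. From the other lists, values are given for some of the up to 3 called genes per list, comparison and direction with at least 1 CPM. Some values outside that choice are also given, such as Cxcl10 in Usp5 KO cells and Ikbke and Nfkbie in Ythdf1 KO cells. The alternatives were not reported for these. The script was tested on simulated data. Alternatives were DESeq2 1.42.0, limma-voom (limma 3.58.1), scaling by RLE or by library sizes, 2 other filters, fits of 6 samples, a replicate block, a GC and length correction, a 2-fold threshold and leaving out each library.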

Additional observations from a re-analysis of the deposited data

Results flagged for a closer look

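The 13 members called in the direct comparison are those whose change over control differed between the knockouts by a test of the difference itself (edgeR, all adjusted p under 0.05; log2, Usp5 KO over Ythdf1 KO). The difference was -1.45 for Tlr2, -1.11 for Cd14, -0.48 for Tollip, -0.48 for Irf3, -0.47 for Myd88, -0.28 for Mavs and -0.23 for Irak2, which were lower in Usp5 KO cells. It was 1.03 for Irf5, 0.94 for Ly96, 0.55 for Tlr4, 0.52 for Azi2, 0.50 for Tbk1 and 0.38 for Irak4, which were higher in Usp5 KO cells. The 13 calls took in 48.1% of the members tested, against 48.5% of all genes. With the GC and length correction Irak2, Irf3, Mavs and Tlr4 were no longer called, and Irak2 changed sign. The calls of Ly96, Irak2, Irf3 and Mavs were also lost when some single libraries were left out.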

How the results depend on the processing

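Of 18 alternatives, the calls of Tlr2, Irak2 and Irak3 in Usp5 KO cells, of Tlr4, Cd14, Irak2, Irak3, Irak4, Tbk1, Azi2 and Irf5 in Ythdf1 KO cells, and of Tlr2, Cd14, Myd88, Irak4, Tbk1, Azi2, Irf5 and Tollip between the knockouts held under every one that was run. The 2-fold threshold is counted apart: it left 1 member in Usp5 KO cells (771 of all genes), 1 in Ythdf1 KO cells (1250) and 3 between the knockouts (1656). With no filter 6 of 33 members (18.2%) were called in Usp5 KO cells, against 11.9% of the 25600 genes then tested. A fit of only the 6 samples compared called 1756 genes there. Leaving out 1 library gave 3 to 7 members in Usp5 KO cells, 10 to 15 in Ythdf1 KO cells and 9 to 14 between the knockouts. Over all genes it gave 1494 to 4371, 4848 to 6479 and 5002 to 7648 calls in the same order; in Usp5 KO cells there were 1494 without control replicate 2, 1736 without control replicate 1, 4371 without control replicate 3 and 1626 without Usp5 KO replicate 2. With the GC and length correction 2 values that were called without it changed sign and lost their call. These were Irak2 between the knockouts at 0.043 and Vcam1 in Ythdf1 KO cells at 0.098 (edgeR adjusted p = 0.662 and 0.447). Some values called neither with nor without it also changed sign, such as Trex1 in Ythdf1 KO cells (0.12 without and -0.29 with the correction). With the replicate number as a block 3, 14 and 14 members and 2346, 6198 and 6458 genes were called in Usp5 KO cells, Ythdf1 KO cells and between the knockouts. Same-numbered samples deviated together in some pairs only (correlations from -0.40 to 0.43), so the numbers were not taken as a pairing. Of the 1452 member values under an alternative 39 gained a call, 36 lost one with the same sign, and 1 called value changed sign. Sign changes between values that were not called were not counted. The level of 3 counts in a single library ran from 0.0698 CPM in Usp5 KO replicate 1 to 0.121 CPM in control replicate 3.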
